A study of Mus musculus with 12 samples.

Results

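Wild type mouse liver was described here from 3 RNA sequencing libraries, 1 per mouse, out of 12 in the series. The 3 mice came from a cross of heterozygous Alb/AEG-1 and Alb/c-Myc animals and carried neither transgene. They were naïve adults that received no treatment. The rule took every library labelled wild type, and the 9 libraries of the 3 transgenic genotypes entered no calculation. The labels give no sex, age in weeks, litter, hour of collection or batch, and nothing in them tells whether the mice were littermates. Each library is called a liver below, numbered 1 to 3 in accession order, and values given as a series of 3 follow that order. The number names a mouse and carries no rank. Levels are given as CPM, the reads of a gene per 1000000 reads in genes of its library. A CPM is a share of reads and grows with transcript length. Ranks, family shares and the words led by therefore give an order by reads and not by transcript number, and CPM divided by transcript length (CPM per kilobase) is given where transcript levels of different genes are compared.

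Hepatocytes make up most of the mass of the liver and secrete most plasma proteins, among them albumin, transferrin, apolipoproteins, clotting factors and complement. They also carry out the urea cycle, gluconeogenesis, bile acid synthesis, lipid handling and the oxidation and conjugation of foreign compounds. Many of these tasks are zoned along the lobule from the portal vein to the central vein, and many follow a daily rhythm or the feeding state. Kupffer cells (resident macrophages), sinusoidal endothelial cells, stellate cells and bile duct cells are the smaller cell populations of the organ.

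Reads in genes came to 33729324, 28595556 and 24909085 in livers 1, 2 and 3. A read was seen for 15892, 15620 and 15779 of 22609 genes, and 5857 genes had no read in any of the 3. A mean of at least 1 CPM was reached by 11850 genes and a mean of at least 10 CPM by 7897. Only 113 genes had a mean of 1000 CPM or more, and they held 39.7%, 40.1% and 39.4% of reads. The reverse held at the low end, where 4902 genes with reads but a mean under 1 CPM together held 0.117%, 0.0964% and 0.114%. The 3 libraries were close on the log2(CPM + 0.5) scale, with a Pearson r across the 11850 genes of 0.975 to 0.979. Those coefficients are across genes, which are not independent replicates.

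Albumin took the largest share. Alb, the main carrier protein of plasma, had 90235, 76265 and 80566 CPM, which is 9.02%, 7.63% and 8.06% of all reads in genes. Its mean was 82356 ± 7155 CPM (SD, n = 3). It was first in each of the 3 livers, both by CPM and, on its mean, per kilobase (40489.5 CPM per kilobase). The 10 genes with most reads held 17.8%, 17.5% and 16.9%, and the 100 with most reads held 38.4%, 38.7% and 37.9%. Counted down from the top of each liver's own list, 260, 247 and 256 genes were needed to reach 50% of its reads.

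Other carriers of plasma followed. Trf, transferrin, which carries iron, had 12439, 14114 and 14743 CPM. Sepp1, selenoprotein P, which brings selenium to other tissues, had 5865, 7392 and 8034 CPM and was lowest in liver 1. Ahsg, fetuin-A, had 7212, 6518 and 6379.8 CPM, and its highest value was in liver 1. Gc, the vitamin D binding protein, had 5600, 6199 and 6714 CPM, and its coefficient of variation (CV, the SD over the 3 livers divided by their mean) was 9.03%. For Ttr, transthyretin, which carries thyroid hormone, the values were 4508, 4976 and 5049.9 CPM with a CV of 6.07%. Hpx, hemopexin, which binds free heme, had 4529, 3258 and 3800.4 CPM and Mup3, a major urinary protein of a family that binds pheromones, 3391, 5839.9 and 7572 CPM. Liver 1 was highest for Hpx and lowest for Mup3.

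Lipid transport and lipid synthesis came next. Scd1, the stearoyl-CoA desaturase that makes monounsaturated fatty acids, was second by reads with 15584, 21377 and 11681 CPM, and at rank 15 per kilobase. Liver 2 stood highest and liver 3 lowest, a spread of 1.83-fold. Apoe, an apolipoprotein of remnant particles, had 14909.8, 15492 and 14241 CPM and a CV of only 4.21%. Apob, the scaffold of very low density lipoprotein, had 7701, 8851 and 8865 CPM. Its transcript is long, and it was ranked sixth by CPM but stood at 608 CPM per kilobase, against 10569 for Apoe and 8205 for Apoa2, an apolipoprotein of high density lipoprotein. Apoa1, the main protein of high density lipoprotein, had 6307, 5780.3 and 4193 CPM and was lowest in liver 3, as were the 3 fibrinogen chains described further on. Fabp1, which carries fatty acids inside the hepatocyte, had 4172, 4869 and 3752 CPM, and Scp2, a sterol carrier of peroxisomes, had 2827, 3295 and 3274 CPM. Fabp1 was highest in liver 2 and Scp2 lowest in liver 1.

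Protease inhibitors, complement and clotting made up most of the remaining secreted products. Serpina3k, a serine protease inhibitor, had 8003, 9149 and 8848 CPM and Pzp, an alpha-macroglobulin that traps proteases, 8407, 7061 and 8068 CPM. C3, the central component of complement, had 7671, 8357 and 7857 CPM with a CV of 4.45%. Plg, plasminogen, the precursor of the enzyme that dissolves clots, had 3401, 3085 and 3233 CPM with a CV of 4.88%. Each of these 4 stayed within a narrow band, and none was set apart in 1 liver.

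Most of the rest of the top 30 were metabolic enzymes. Cyp2e1, the ethanol-inducible cytochrome P450, had 7707, 5614 and 5889.8 CPM and was highest in liver 1. Cps1, which makes carbamoyl phosphate as the entry step of the urea cycle, had 2688, 3323 and 4813 CPM and Car3, a carbonic anhydrase, 3579, 2597 and 5276 CPM. Both were highest in liver 3. Mat1a, which makes S-adenosylmethionine, had 3365, 3720.3 and 4139 CPM, and Mgst1, a membrane glutathione transferase, 3318, 3569 and 3829.7 CPM. Cat, catalase, had 3081, 4129 and 3483 CPM and was highest in liver 2.

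**Figure D1:**
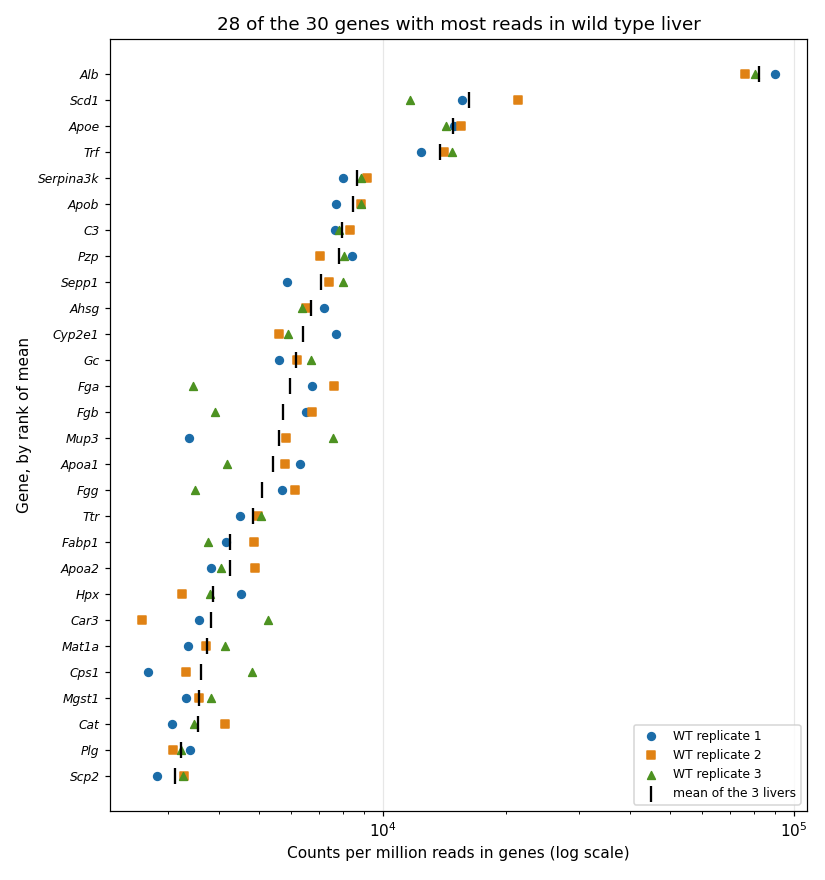
Each row is 1 of 28 of the 30 genes with the highest mean, points are the CPM in each of the 3 livers on a log axis and the black bar is their mean. Alb stands apart at 76265 CPM or more in each liver, while the points of most neighbouring genes interleave.

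Rank order beyond the leading genes was mostly not resolved by 3 livers. Of the 30 genes, 28 were within the top 30 of every liver, the exceptions being Cps1, at rank 34 in liver 1, and Car3, at rank 35 in liver 2. Of the 29 pairs of neighbours in the ranking, only 3 kept the same order in all 3 livers, namely Alb above Scd1, Trf above Serpina3k and Apob above C3. Scd1 was above Apoe in 2 of 3 livers, and Trf held ranks 4, 4 and 2. Per kilobase, 22 of the 30 stayed within the top 30. The next after Alb on that scale were Apoe, Apoa2, Fabp1 and Mup3 (mean 5692 CPM per kilobase), and short transcripts such as Apoc1 (4035), an apolipoprotein, and Hamp (1584), the iron hormone hepcidin, entered. Apob, Cps1, Mat1a, Cat, Plg, Scp2 and Fgb were among those that left it.

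The start regions of these genes are shown because elements known from liver promoters can be read in them. HNF1 is a transcription factor of hepatocytes, and the letters GTTAAT belong to its binding element. In the following lines, credited to RefSeq with build GRCm38.p6 and ending at the base before the annotated start site, capitals mark GTTAAT on either strand (written ATTAAC where it lies on the opposite strand). Capitals also mark the letters TATAAA of a TATA box in Fabp1 and Cyp2e1, and in Alb the letters TTATGTAA on either strand. These are letters of the D-box, an element bound by the rhythmic factors Dbp, Tef and Hlf. Only exact matches are marked, so an element with other letters stays in lower case.
Alb, chr5:90460637-90460869, plus strand: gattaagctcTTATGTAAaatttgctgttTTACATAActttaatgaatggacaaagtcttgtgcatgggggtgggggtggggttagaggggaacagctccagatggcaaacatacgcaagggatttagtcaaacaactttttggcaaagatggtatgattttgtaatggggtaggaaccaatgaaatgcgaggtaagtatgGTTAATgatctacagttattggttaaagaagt
Fabp1, chr6:71199759-71199878, plus strand: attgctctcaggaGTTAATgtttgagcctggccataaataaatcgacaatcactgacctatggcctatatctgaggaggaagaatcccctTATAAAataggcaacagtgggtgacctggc
Gc, chr5:89457899-89458018, minus strand: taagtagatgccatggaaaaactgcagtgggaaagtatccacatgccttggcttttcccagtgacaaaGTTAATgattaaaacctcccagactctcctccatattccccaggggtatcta
Pzp, chr6:128526721-128526929, minus strand: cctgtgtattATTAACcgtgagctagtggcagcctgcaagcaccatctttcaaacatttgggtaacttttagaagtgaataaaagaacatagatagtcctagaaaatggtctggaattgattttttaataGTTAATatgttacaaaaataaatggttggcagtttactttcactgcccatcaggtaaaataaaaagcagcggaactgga
Fga, chr3:83026033-83026152, plus strand: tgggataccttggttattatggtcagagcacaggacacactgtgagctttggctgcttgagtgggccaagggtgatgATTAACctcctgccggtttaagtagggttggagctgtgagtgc
Fgb, chr3:83049864-83049983, minus strand: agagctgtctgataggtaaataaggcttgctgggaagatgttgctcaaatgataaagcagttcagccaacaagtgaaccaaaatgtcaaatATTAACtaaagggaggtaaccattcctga
Cyp2e1, chr7:140763699-140763818, plus strand: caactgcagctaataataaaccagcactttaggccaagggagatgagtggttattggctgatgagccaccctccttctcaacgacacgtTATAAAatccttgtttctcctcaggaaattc
GTTAAT was found within 250 bases before the start, on either strand, in 7 of the 20 genes of the top 30 with a promoter in the RefSeq table (35% of them), which were Alb, Apoe, Pzp, Gc, Fga, Fgb and Fabp1. Among the 100 genes with most reads it was in 17 of 74 (23.0%), among the 1000 with most reads in 11.2%, among genes of at least 1 CPM in 5.36% and among all 27025 genes of the table in 7.49%. TATAAA, searched on the sense strand 45 to 16 bases before the start, was in 9 of 74 (12.2%) of the 100 genes with most reads, against 1.65% of genes of at least 1 CPM and 2.57% of all genes of the table. In the top 30 it was in 2 of 20, Fabp1 and Cyp2e1. The share with GTTAAT was higher in each narrower group of abundant genes, and the share with TATAAA was higher in the top 100 than over all expressed genes. These are descriptions of the windows searched. A match shows letters only and says nothing of binding, and none of the motifs overlap in the lines above.

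Grouped by family, the albumin genes (Alb, Afp, Afm and Gc) held 9.62%, 8.28% and 8.76% of reads in genes. Apolipoproteins, 28 genes led by Apoe, held 4.19%, 4.61% and 4.18%, highest in liver 2. Cytochromes P450, 96 genes of which 65 reached 1 CPM, held 2.49%, 2.34% and 2.42%. Serpins (63 genes) held 2.32%, 2.23% and 2.31% and solute carriers (336 genes) 2.02%, 2.03% and 2.13%. The order of families differs per kilobase, where solute carriers held a mean of 1.59% and major urinary proteins 1.89%, against 2.06% and 0.803% by reads. The CV over the livers of the summed share of reads of cytochromes P450, serpins and solute carriers was 3.02%, 2.11% and 2.87%, although 31 of 65 cytochromes P450 at or above 1 CPM differed at least 2-fold between the highest and the lowest liver. Over all 11850 genes at or above 1 CPM, 1266 (10.7%) did so.

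Within the cytochromes P450 the subfamilies moved apart. Cyp2c29, a drug-metabolising enzyme, had the second most reads of the family after Cyp2e1 and was steady at 2804, 3140.1 and 2868 CPM. Cyp3a11, the main mouse relative of the human drug-metabolising CYP3A4, had 2629, 1096 and 1302 CPM, and the Cyp3a genes as a group held 0.311%, 0.188% and 0.195%. Cyp1 genes, led by Cyp1a2, held 0.0892%, 0.0410% and 0.0529%. Both sums were highest in liver 1, as were all 3 Cyp1 genes and 3 of the 5 Cyp3a genes at or above 1 CPM. Cyp4a genes, omega-hydroxylases of fatty acids, held 0.0456%, 0.0989% and 0.0632%, the largest sum being in liver 2. All 6 of them differed at least 2-fold, 1, 3 and 2 being highest in livers 1, 2 and 3. Cyp2d genes (7 at or above 1 CPM, 1 of them 2-fold apart) and Cyp4f genes (5, of which 1) had median CVs of 10.6% and 8.76%. The family median was 33.1%.

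Other families of the secretory and metabolic programme were smaller. Fibrinogen chains (3 genes) held 1.89%, 2.05% and 1.09%, the lowest share being in liver 3. Alpha-macroglobulins, led by Pzp and Mug1, held 1.15%, 1.07% and 1.08%, and inter-alpha-trypsin inhibitor heavy chains, led by Itih4, 0.650%, 0.542% and 0.509%. Aldehyde dehydrogenases, led by Aldh2 with 2640.1, 2477 and 2576 CPM, the enzyme that clears acetaldehyde, held 0.933%, 1.04% and 1.10%. Glutathione transferases held 0.739%, 0.780% and 0.830% and carboxylesterases, led by Ces1c, 0.595%, 0.619% and 0.643%. UDP-glucuronosyltransferases, which attach glucuronic acid to bilirubin, steroids and drugs, held 0.328%, 0.404% and 0.441% and were lowest in liver 1. The major histocompatibility genes, led by H2-Q10 (2208, 2389 and 2448 CPM), which encodes a secreted class I molecule of liver, held 0.639%, 0.535% and 0.647%.

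Nuclear-encoded subunits of the respiratory chain and ATP synthase held 1.01%, 1.05% and 1.07%. None of the 76 members at or above 1 CPM differed 2-fold, and their median CV was 4.97%, against 12.1% over all genes. Atp5b, the catalytic beta subunit of ATP synthase, had 1305, 1306 and 1369 CPM. Mitochondrial ribosomal proteins (74 at or above 1 CPM, 1 of them 2-fold apart) had a median CV of 6.84%, proteasome subunits (38, of which 2) 7.89% and translation factors (63, of which 3) 7.998%. These housekeeping families thus had lower median CVs than the table as a whole.

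**Figure D2:**
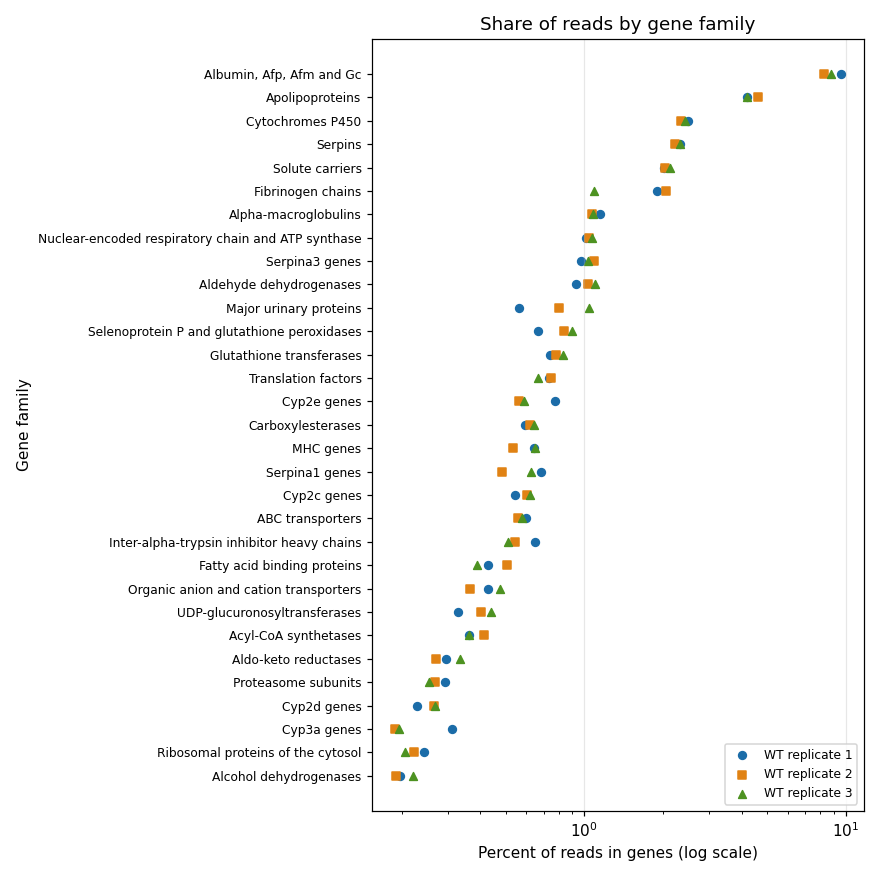
Points give the percent of reads in genes held by each family in each of the 3 livers, on a log axis, for families with a mean of at least 0.2%. Families overlap (Serpina1 and Serpina3 are also serpins), and fibrinogen chains, major urinary proteins and Cyp3a genes are the widest rows.

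Alignments at several places were listed apart in these tables and not given to a gene, which touches families with near-identical copies. They came to 53655164, 32683159 and 33797653, which is 1.59, 1.14 and 1.36 times the reads in genes. How far a gene is exposed was measured as the percent of 50-base windows of its longest transcript that occur in another gene. Among genes of at least 1 CPM with a transcript, 8379 of 11744 (71.3%) shared no window and 157 shared over 50%. The median CV was 12.1% in the former and 17.5% in the latter. The part of multiple alignment in any single value below was not tested.

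Major urinary proteins, made under growth hormone and androgen control in male liver, held 0.562%, 0.802% and 1.05%. The 20 genes shared a median of 87.9% of windows, and 12 of 16 at or above 1 CPM differed at least 2-fold. Mup3 shared 15.6%, and Mup21, which shared 19.3%, had 108, 155 and 478 CPM. Both were lowest in liver 1 and highest in liver 3, whereas Mup5, which shared 17.1%, was highest in liver 1 with 118, 1.29 and 48.2 CPM. The more exposed members had no common order either. Mup12 (85.4% shared) had 809, 65.7 and 375 CPM, Mup7 (90.2%) 48.4, 707 and 681 CPM and Mup10 (86.2%) 967, 502 and 661 CPM. Mup2 and Mup19, with every window shared, had no read at all. Mup15, also with every window shared, had 1 read, in liver 2. Reads aligned at several places are not assigned by this counting, so the values of these 3 genes give no limit on expression.

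Cytosolic ribosomal proteins held 0.244%, 0.222% and 0.206% of reads over 86 genes, of which 21 were under 1 CPM. Of the 86, 30 shared over 50% of their windows, 53 shared up to 50% and 3 shared none. Of these, 7, 12 and 2 were under 1 CPM. Rpl4, a protein of the large subunit, had the most reads with 388, 374 and 328 CPM. The hemoglobin chains (7 genes) had no read in any liver. Of the 5 with a matched transcript 2 shared over 50% of their windows, while the median share of the 5 was 0%. Why these genes had no read was not tested, and no limit on expression is taken from their values. Gapdh, the glycolytic enzyme often used as a reference, had 1.42, 1.19 and 1.61 CPM and shared 82.5% of its windows, and Ppia, cyclophilin A, had 0.415, 0.839 and 1.04 CPM and shared 27.4%. Mug2, an alpha-macroglobulin that shared 50.5%, had 373, 693 and 67.8 CPM. Serpina1e, an alpha-1-antitrypsin gene that shared 35.6%, had 1306, 252 and 856 CPM, while its neighbour in the family Serpina1b was steady at 2758, 2889 and 2595 CPM.

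The spread between livers was described gene by gene. Over the 11850 genes of at least 1 CPM the median CV was 12.1%, with quartiles of 6.89% and 21.5%. Counting error alone would give a median of 4.23%, and 10411 genes (87.9%) were above their own counting value. A CV under 10% was seen for 4819 genes (40.7%) and a CV over 50% for 551 (4.65%). The common biological coefficient of variation, edgeR's single estimate over all these genes of the spread beyond counting, was 22.1%. The median of edgeR's estimates gene by gene was 17.7%. Among the 7897 genes of at least 10 CPM the median CV was 9.86%, and 429 of them (5.43%) differed at least 2-fold. The median fell from 19.2% at 1 to 10 CPM to 9.93% at 10 to 100 CPM and 9.37% at 100 to 1000 CPM, and was 11.7% for the 113 genes above. No test between livers was made, since each is a single animal.

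**Figure D3:**
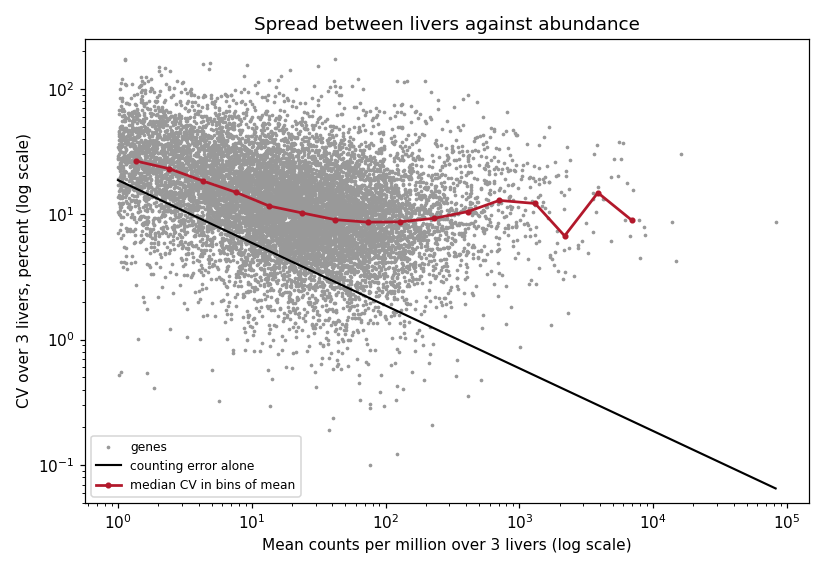
Each grey point is a gene of at least 1 CPM, with its mean over the 3 livers and its CV, both on log axes. The black line is the CV that counting error alone would give, and the red line, the median in bins, runs above it and levels off near 10%.

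The livers did not contribute equally to the wide genes. Of all genes of at least 1 CPM, 4653 (39.3%) were highest in liver 1, 3507 (29.6%) in liver 2 and 3690 (31.1%) in liver 3. The lowest value was in liver 1 for 2454 (20.7%), in liver 2 for 5022 (42.4%) and in liver 3 for 4374 (36.9%). These shares are the background for the counts below. Scaling moves them: with edgeR's TMM scaling 31.1%, 36.2% and 32.6% of genes were highest in livers 1, 2 and 3. Of the 1266 genes that differed 2-fold, 592, 274 and 400 were highest in livers 1, 2 and 3, and 220, 679 and 367 were lowest there. The limit of 1 CPM, here and in the lists below, is on the mean over the livers. A gene can therefore pass it through 1 high liver alone.

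The narrowest genes could not be ordered. The 10 lowest CVs among genes of at least 10 CPM ran from 0.0999% to 0.327%, each below what counting error gives for that gene. They were 0610011F06Rik, Mlf2, Echdc1, C2cd2, Nr1h2, Gtf3c2, Vipar, Mon2, AW555464 and Cox5a. CVs this low, that of Ppara below included, also depend on scaling by library total. The TMM factors of livers 1, 2 and 3 were 1.02, 0.980 and 0.997, and they differ by more than these CVs. Nr1h2, the oxysterol receptor LXR beta, had 40.6, 40.7 and 40.7 CPM. Cox5a, a subunit of cytochrome c oxidase, had 119, 119.6 and 119 CPM. Mlf2 had 121, 121 and 121 CPM. A transcription factor of the hepatocyte was nearly as narrow: Ppara, the fatty acid receptor that switches on fat oxidation, had 415, 414 and 412 CPM. The list of 23 hepatocyte transcription factors had a median CV of 9.49%. Hnf4a, a nuclear receptor of hepatocyte identity, had 811, 974 and 693 CPM, Cebpa, a factor of hepatocyte maturity, 500.2, 507 and 682 CPM and Rxra, the shared partner of nuclear receptors, 534, 463 and 469.5 CPM. Cebpb, a relative of Cebpa known from the acute phase response, was the widest of the list with 148, 48.6 and 62.9 CPM.

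Genes used as references in quantitative PCR differed in spread. None of the 14 at or above 1 CPM differed 2-fold, and their median CV was 9.62%. Tbp, the TATA binding protein, had 11.9, 12.6 and 12.4 CPM. Polr2a, the large subunit of RNA polymerase II, had 55.7, 58.3 and 54.04 CPM and Hprt, a purine salvage enzyme, 64.01, 70.4 and 65.4 CPM. The CV of these 3 was at most 5.07%. Sdha, of respiratory complex II, had 705, 783 and 813 CPM, Pgk1, of glycolysis, 13.1, 14.5 and 14.6 CPM, and Rplp0, of the ribosome, 105, 102 and 88.3 CPM. Ywhaz, a 14-3-3 protein, had 49.96, 44.4 and 40.9 CPM and Gusb, beta-glucuronidase, 32.2, 25.9 and 29.1 CPM. The widest were B2m, the light chain of class I molecules, with 1539, 1265 and 1885 CPM, Tfrc, the transferrin receptor, with 40.02, 34.6 and 25.7 CPM, and Actb, beta-actin, with 264, 384 and 247 CPM. Actb was highest in liver 2, B2m in liver 3 and Tfrc in liver 1.

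The 20 widest genes of at least 10 CPM had CVs from 103% to 172%. Of these, 8 were highest in liver 3, 7 in liver 1 and 5 in liver 2. The limit of 10 CPM is on the mean over the livers, so a gene can enter through the 1 liver where it is high. Dmbt1, a scavenger receptor protein of epithelia, headed the list with 0.148, 0.210 and 125 CPM, so nearly all of its reads came from liver 3. Liver 3 was also the highest for C1rb, a complement protease gene that shared 60.5% of its windows, with 8.005, 0.350 and 85.8 CPM. Ly6a, the surface antigen Sca-1, had 19.7, 18.8 and 149 CPM, Cyp2c44, a cytochrome P450, 36.5, 44.2 and 284 CPM and Cyp2b9, another, 10.5, 17.2 and 96.6 CPM. A4gnt, a glycosyltransferase, had 2.19, 6.78 and 31.3 CPM and Selenbp2, a selenium binding protein with 52.04% shared, 17.7, 19.02 and 101 CPM. In liver 1 the highest were Cdh1, E-cadherin of cell junctions, with 50.99, 2.62 and 4.54 CPM, and Mup5, with 118, 1.29 and 48.2 CPM. Igfbp1, which binds insulin-like growth factor, had 93.03, 20.5 and 12.5 CPM, and Enho, the gene of the peptide adropin, had 62.8, 3.39 and 21.2 CPM. Nt5e, the ectonucleotidase CD73, had 32.9, 3.81 and 8.79 CPM, the kinase gene Aatk 23.5, 4.02 and 4.01 CPM and Mup9 40.4, 1.15 and 7.83 CPM. Liver 1 exceeded both other livers at least 2-fold in each of these 7.

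Liver 2 was the highest for the other five of the 20. Cyp4a10 and Cyp4a14, fatty acid hydroxylases and known targets of Ppara, had 35.9, 339 and 61.7 CPM and 85.1, 463 and 48.3 CPM. G0s2, which holds back the lipase that breaks down stored fat, had 61.5, 315 and 32.9 CPM. Id1, an inhibitor of transcription factors and a known target of bone morphogenetic protein signalling, had 6.31, 36.6 and 3.93 CPM, and Cyp2a22 had 1.51, 25.3 and 6.42 CPM. The last of the 20, the clock gene Dbp, is described with its list.

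Of 43 gene lists by function or cell type, 32 had at least 5 members at or above 1 CPM. Their median CVs ran from 8.17% for coagulation to 89.3% for genes known as female-biased in liver. Carrier proteins (11.8%), protease inhibitors (8.97%), bile acid synthesis and transport (11.4%) and the antioxidant enzymes (11.1%) lay below the 12.1% of all genes. With TMM scaling the first pair stayed below it, at 10.9% and 8.64%, and the second pair was above it, at 12.4% and 13.1%. At a mean of at least 10 CPM the median of all genes was 9.86%. The 4 lists, in the order given, then had 8.86%, 8.97%, 11.4% and 9.30%, so that bile acid genes lay above it. When each liver was left out in turn the 4 medians ran from 4.72% to 12.4%, against 9.23% to 11.03% for all genes. Wide lists with at least 10 members included Kupffer cell markers (60.03%), the circadian clock (47.1%), the interferon response (39.1%), male-biased liver genes (31.9%), and pericentral (30.8%) and periportal (28.9%) markers. Cell cycle and immediate early genes lay between the last pair. Leaving out 1 liver lowered several of these by over 1.5 times. Without liver 1 the median was 27.97% for Kupffer cell markers, 16.9% for pericentral markers and 16.1% for immediate early genes. Without liver 2 it was 27.4% for the clock, 20.5% for the interferon response and 14.6% for the cell cycle, and without liver 3 it was 24.8% for female-biased genes. In these medians the limit of 1 CPM was applied to the mean of the 2 livers kept, so the members can differ. Cyp2b13, given further on, was under 1 CPM in livers 1 and 2 and drops out without liver 3. The lists were chosen with these results known, so their order is a description.

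**Figure D4:**
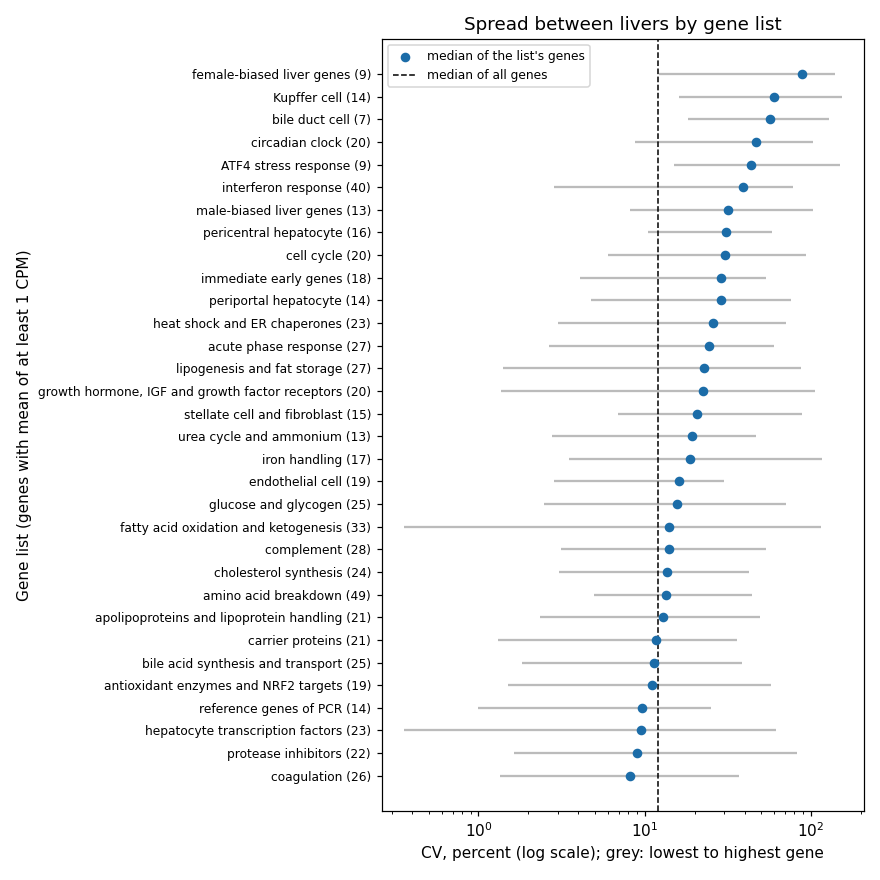
Blue points give the median CV over the 3 livers of each list's genes of at least 1 CPM, with the number of genes in brackets, and grey lines run from the lowest to the highest gene on a log axis. The dashed line marks the 12.1% of all genes; most of the secretory lists sit near or left of it, and clock, Kupffer and interferon genes sit to its right.

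Genes of the circadian clock list differed between the livers, Arntl in the opposite order to several of its targets. The clock is a feedback loop in which Arntl (BMAL1) with Clock or Npas2 switches on Per, Cry, Nr1d and the PAR bZIP genes Dbp, Tef and Hlf, whose products act back on the loop. Of its 20 genes, all at or above 1 CPM, 13 (65%) differed at least 2-fold, 14 were highest in liver 3 and 13 lowest in liver 2. With TMM or DESeq2 scaling the counts of highest and lowest livers were the same. Dbp had 25.4, 6.61 and 82.3 CPM, a 12.5-fold spread, and Per3, a repressor of the loop, had 18.03, 5.28 and 37.9 CPM. Per1 had 40.7, 6.64 and 38.6 CPM and Per2 27.8, 14.97 and 34.6 CPM. All of these were lowest in liver 2.

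The order of Dbp, Per2 and Per3, liver 2 lowest and liver 3 highest, also held for other genes of the list, repressors of the loop among them. Tef had 119, 66.2 and 188 CPM, Hlf 77.7, 65.6 and 83.4 CPM and Nr1d1, the repressor REV-ERB alpha, 94.9, 88.7 and 169 CPM. Nr1d2, its relative, had 89.4, 52.5 and 136 CPM, Bhlhe40 112, 96.1 and 163 CPM and Cry2 39.9, 31.4 and 56.7 CPM. Usp2, a rhythmic ubiquitin protease, had 5.81, 1.26 and 8.75 CPM, Bhlhe41 1.30, 0.629 and 5.22 CPM and Gm129, the repressor known as Chrono or Ciart, 2.22, 0.350 and 3.01 CPM. Bhlhe40 and Bhlhe41 encode repressors that act on E-boxes.

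Another group of the list ran the opposite way. Arntl had 20.8, 32.7 and 10.4 CPM, Npas2 3.65, 12.8 and 2.37 CPM, Cry1 11.7, 25.4 and 8.67 CPM and Nfil3, a repressor of D-box genes, 26.3, 42.9 and 20.7 CPM. These 4 were the ones highest in liver 2, and each was lowest in liver 3. Clock itself was nearly level at 74.8, 66.9 and 62.99 CPM. Rora, an activator of Arntl, had 9.96, 9.97 and 15.1 CPM.

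E-boxes are the sites at which Arntl and its partners bind, and their letters CACGTG read the same on both strands. They occurred within 250 bases before a start in 5 of the 17 clock genes with a promoter in the table (29.4%), against 10.1% of genes of at least 1 CPM and 6.86% of all genes of the table. The 5 are shown with the letters in capitals, together with Per3, in which TTATGTAA occurs at 2 places. All are from RefSeq, build GRCm38.p6, given from 5′ to 3′ on the strand of the gene.
Per1, chr11:69098757-69098814, plus strand: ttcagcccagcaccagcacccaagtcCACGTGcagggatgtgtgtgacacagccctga
Tef, chr15:81802520-81802577, plus strand: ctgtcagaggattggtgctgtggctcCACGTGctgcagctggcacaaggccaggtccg
Bhlhe41, chr6:145865542-145865599, minus strand: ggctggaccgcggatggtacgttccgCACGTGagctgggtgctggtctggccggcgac
Gm129, chr3:95882241-95882370, minus strand: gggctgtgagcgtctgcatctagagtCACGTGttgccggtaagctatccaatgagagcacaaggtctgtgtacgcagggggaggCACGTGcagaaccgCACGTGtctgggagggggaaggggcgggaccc
Cry1, chr10:85185083-85185140, minus strand: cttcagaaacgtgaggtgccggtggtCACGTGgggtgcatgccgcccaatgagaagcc
Per3, chr4:151044790-151044896, minus strand: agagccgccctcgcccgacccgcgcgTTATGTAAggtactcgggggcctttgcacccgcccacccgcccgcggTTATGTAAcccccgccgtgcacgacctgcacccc
TTATGTAA was found in 0.594% of genes of at least 1 CPM and in 0.977% of all genes of the table. Of the 5 genes with CACGTG, Per1 had its lowest value in liver 2 and its highest in liver 1, Tef, Bhlhe41 and Gm129 were lowest in liver 2 and highest in liver 3, and Cry1 was lowest in liver 3. Dbp, Nr1d1 and Arntl held neither CACGTG nor TTATGTAA in these windows.

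Kupffer cell markers were highest in liver 1 throughout. All 14 were highest there, 13 were lowest in liver 2, and 12 (85.7%) differed at least 2-fold. Their summed level was 818, 252 and 388 CPM. In bulk tissue, fewer cells of a type and less RNA per cell cannot be told apart. Cd5l, a protein secreted by macrophages, had 216, 53.8 and 80.01 CPM, and Clec4f, a lectin of Kupffer cells, 178, 52.8 and 93.7 CPM. Csf1r, the receptor for colony stimulating factor, had 73.3, 23.2 and 32.6 CPM and Vsig4, a complement receptor, 39.5, 12.9 and 19.4 CPM. C1qa, C1qb and C1qc, the chains of complement C1q, had 63.5, 24.4 and 33.3, 49.7, 18.5 and 27.9, and 49.7, 18.1 and 24.7 CPM. Their order across livers was the same.

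Marco, a scavenger receptor, differed most among these markers. It had 25.6, 0.140 and 1.97 CPM, from 863 reads in liver 1 and 4 reads in liver 2. Cd163, the receptor for hemoglobin with haptoglobin, had 24.1, 2.48 and 11.1 CPM and Folr2, a folate receptor, 13.1, 0.560 and 7.27 CPM. Emr1 (F4/80) had 28.6, 7.90 and 11.8 CPM and Timd4, a receptor for dying cells, 11.4, 4.62 and 4.09 CPM. Lyz2, lysozyme, which other myeloid cells also make, was flatter at 39.3, 28.4 and 35.6 CPM, and Cd68 had 6.97, 4.06 and 4.98 CPM.

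Sinusoidal endothelial markers were also mostly highest in liver 1, 18 of 19 (17 of 19 with TMM scaling), but none differed 2-fold. Their summed level was 711, 560.1 and 559 CPM. Stab2, a hyaluronan scavenger receptor, had 77.6, 56.8 and 53.8 CPM, Clec4g 79.9, 62.5 and 58.2 CPM, Eng, endoglin, 80.1, 63.4 and 69.5 CPM and Cdh5, the cadherin of endothelial junctions, 41.9, 25.1 and 26.5 CPM. Markers of stellate cells and fibroblasts summed to 474, 570.1 and 510.3 CPM. Of the 15 at or above 1 CPM, 4, 5 and 6 were highest in livers 1, 2 and 3 (3, 7 and 5 with TMM scaling). The lowest value was in liver 1 for 9 (60%), in liver 2 for 0 and in liver 3 for 6 (40%), by CPM and with TMM scaling. Over all genes of at least 1 CPM these shares were 20.7%, 42.4% and 36.9% by CPM. Dcn, decorin, had 179.9, 198 and 172 CPM and Reln, reelin, 62.4, 76.2 and 62.5 CPM. Acta2, smooth muscle actin, was the widest with 2.40, 4.02 and 13.01 CPM and was highest in liver 3. Bile duct markers summed to 66.97, 101 and 80.01 CPM. Sox9, a bile duct transcription factor, was highest in liver 2 with 4.92, 15.8 and 4.05 CPM, whereas Muc1, a mucin, was highest in liver 3 with 0.563, 0.490 and 5.22 CPM.

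Markers of cells that a liver sample could hold by blood content or dissection were low. Neutrophil markers summed to 4.15, 0.699 and 0.562 CPM, T and NK cell markers to 7.59, 3.15 and 3.97 CPM, B and plasma cell markers to 7.89, 6.64 and 8.11 CPM and platelet markers to 3.08, 2.83 and 2.69 CPM. Kidney (5 genes) summed to 0.0296, 0 and 0.0401 CPM, intestine (3) to 0.0593, 0.175 and 0 CPM and skeletal muscle (4) to 0, 0 and 0.241 CPM. Red cell markers other than the hemoglobin chains were at 1.57 CPM or less except Alas2, the erythroid enzyme of heme synthesis, with 171, 197 and 342 CPM. Of the pancreatic acinar markers only Cela1, an elastase gene, was above 1 CPM, with 42.1, 33.3 and 54.3 CPM, and of the adipocyte markers only Fabp4, with 11.1, 5.91 and 4.66 CPM. Strand use and annotation in the counting are unknown here, and whether the reads listed under Alas2 and Cela1 came from those genes was not tested. The label liver was checked against the hepatocyte products given above, which led every library.

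Hepatocyte zonation markers differed between livers in opposite directions. Of 16 pericentral markers 13 were highest in liver 1, and of 14 periportal markers 10 were highest in liver 3 and 9 lowest in liver 1. Glul, glutamine synthetase of the last cells around the central vein, had 1387, 671 and 644 CPM. Slc1a2, the glutamate transporter of the same cells, had 294, 104 and 130.2 CPM, Oat, ornithine aminotransferase, 1133, 588 and 759 CPM and Lgr5, a receptor of Wnt signalling, 13.4, 5.49 and 5.22 CPM. Livers 2 and 3 were both low for these. Cyp1a2, which metabolises caffeine, had 887, 408 and 527 CPM and Gulo, of vitamin C synthesis, 736, 380.0 and 509.9 CPM. Other pericentral genes were flatter or ran otherwise. Axin2, a Wnt target, had 15.2, 15.8 and 11.2 CPM, Rgn, regucalcin, 1639.8, 1510.4 and 1857 CPM and Tbx3 36.9, 65.6 and 38.7 CPM. The 5 pericentral and 5 periportal members that differed at least 2-fold are 31.2% and 35.7% of those lists.

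On the periportal side, Agxt2l1, a phospholyase, had 31.3, 132 and 233 CPM, a 7.43-fold spread. Gls2, liver glutaminase, had 231, 339 and 469 CPM and Hal, histidase, 188, 358 and 394 CPM. Cyp2f2, a naphthalene-oxidising cytochrome P450, had 671, 1459.6 and 1283 CPM. Liver 1 was the lowest in all 4. Sds, serine dehydratase, had 131, 118 and 224 CPM and was highest in liver 3. Of the urea cycle, Asl had 302, 405 and 529.5 CPM, Ass1 355, 383 and 548 CPM (55.3% of windows shared) and Arg1, arginase, 1312, 1177 and 1694 CPM. Together with Cps1 each was highest in liver 3. Pck1 and G6pc, the gluconeogenic enzymes, did not follow, with 2376, 1758 and 2039 and 413, 535 and 349 CPM.

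**Figure D5:**
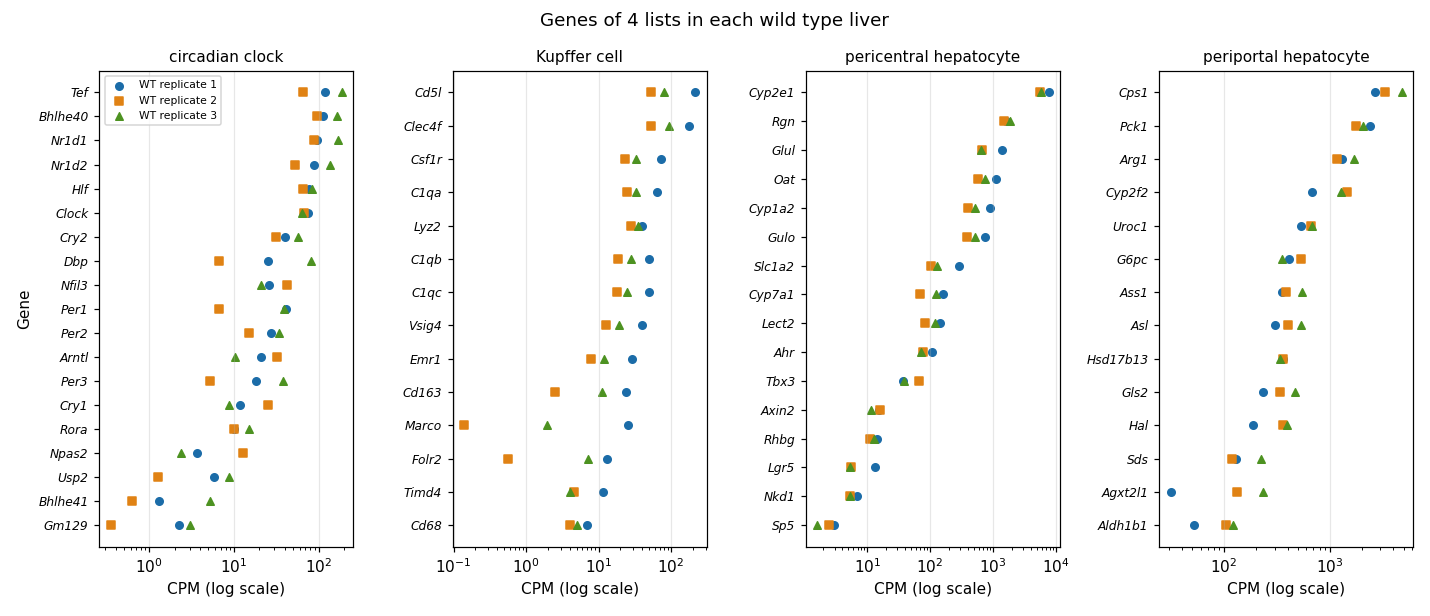
CPM of clock genes, Kupffer cell markers, pericentral and periportal markers of at least 1 CPM in each of the 3 livers, on log axes. In the clock panel liver 2 (squares) lies left for Dbp, Per1 and Per3 and right for Arntl, Cry1 and Npas2; in the Kupffer panel liver 1 (circles) lies right for all 14 genes.

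Amino acid breakdown was shifted towards liver 3, though by small steps. Of its 49 genes 37 were highest in liver 3 and 32 lowest in liver 1, with TMM scaling 37 and 35. Of the 49, 3 (6.12%) differed 2-fold, against 10.7% of genes of at least 1 CPM and 5.43% of genes of at least 10 CPM, and the median CV was 13.4% (8.74% without liver 3). Hpd, of tyrosine breakdown, had 1533, 1475 and 2028 CPM and Tdo2, which opens the ring of tryptophan, 1278, 1227 and 1667 CPM. Cdo1, of cysteine breakdown, had 1788, 1966 and 1832 CPM. Csad, of taurine synthesis, was the widest with 129, 88.3 and 50.3 CPM and, against the list, was highest in liver 1.

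The fibrinogen chains moved as a set. Fga had 6751, 7641 and 3466 CPM, Fgb 6509, 6725 and 3907 CPM and Fgg 5684, 6111 and 3503 CPM, so that liver 3 was the lowest for the 3 chains of this clotting protein. The rest of coagulation was narrow. Serpinc1, antithrombin, had 2288, 2350.2 and 2282 CPM, and 1 of the 26 coagulation genes, Fga, differed 2-fold. Acute phase genes, which hepatocytes raise in inflammation and which include the fibrinogens, were highest in liver 1 in 20 of 27 cases (18 of 27 with TMM scaling), and 10 of 27 (37.0%) differed 2-fold. Itih4 had 2764, 1994 and 1971 CPM, and Hp, haptoglobin, had 2349.6, 1563 and 1895 CPM. Saa2, serum amyloid A, had 26.5, 7.83 and 13.3 CPM. Per kilobase its mean was 24.4 CPM, against 1439 CPM for Hp.

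Fat oxidation stood highest in liver 2. Of the 33 genes of fatty acid oxidation and ketogenesis, 26 were highest in liver 2 and 20 lowest in liver 3 (27 and 17 with TMM scaling), and 9 (27.3%) differed 2-fold. Acaa2, a thiolase of mitochondria, had 890.0, 1041 and 909.5 CPM and Acaa1b, a thiolase of peroxisomes, 656, 906 and 457 CPM. Pdk4, which spares pyruvate in fasting, had 19.4, 46.8 and 9.23 CPM, Fgf21, a hormone of fasting, 5.31, 13.9 and 1.77 CPM and Vnn1, which releases pantothenate, 76.7, 111 and 24.6 CPM. Plin2, a coat protein of lipid droplets, had 496, 959.7 and 394 CPM. These 4 and Cyp4a14 were highest in liver 2 and lowest in liver 3, and Cyp4a10 was highest in liver 2 and lowest in liver 1, while Ppara itself was level. Among lipogenic genes Fasn, fatty acid synthase, had 1548, 1305 and 1680.0 CPM, Acly, which supplies acetyl-CoA, 711, 697 and 1034 CPM and Elovl5, a fatty acid elongase, 1503, 2012 and 1475 CPM. Pnpla3, a lipid droplet protein, was highest in liver 1 with 66.1, 16.7 and 15.5 CPM.

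Chaperones of the endoplasmic reticulum followed a like order. Of 23 heat shock and chaperone genes, 16 were highest in liver 2, none in liver 3, and 19 were lowest in liver 3. With DESeq2 size factors 17 were highest in liver 2 and 2 in liver 3. Hspa5 (BiP), the main chaperone of this compartment, had 1418, 2214 and 975 CPM, Hsp90b1 1362, 1509.8 and 1038 CPM and Calr, calreticulin, 855, 871 and 753 CPM. Dnajb9, a co-chaperone, had 83.8, 214 and 68.8 CPM and Creld2 55.3, 104 and 19.4 CPM. Asns, asparagine synthetase, a target of the stress response factor Atf4, was instead highest in liver 1 with 5.54, 0.105 and 0.442 CPM, from 187, 3 and 11 reads. Atf4 itself had 95.02, 126 and 101 CPM.

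Interferon response genes were lowest in liver 2. Of 40 at or above 1 CPM, 35 were lowest in liver 2 and 26 highest in liver 3 (35 and 26 with TMM scaling too), and 23 (57.5%) differed 2-fold. Irf7, the factor that amplifies the response, had 66.5, 35.9 and 149.7 CPM, Bst2, which tethers virus particles, 186, 85.7 and 228 CPM and Usp18, which restrains the receptor, 20.8, 6.50 and 37.1 CPM. Iigp1, an immunity GTPase, was high and flat with 771, 629.5 and 663 CPM, and Irgm1, another, had 110.5, 104 and 109 CPM. The values of the Kupffer cell markers, given above, were lowest in liver 2 as well, and their part in this list was not tested. Complement genes were lowest in liver 2 in 21 of 28 cases (17 with TMM scaling), but 5 of 28 (17.9%) differed 2-fold, and C1qa, C1qb and C1qc, which Kupffer cells make, are among the 28.

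Cholesterol synthesis was lowest in liver 2 for 19 of 24 genes by CPM, for 16 with TMM scaling and for 15 with DESeq2 size factors. The liver with the highest value depended on scaling: 16 were highest in liver 1 and 8 in liver 3 by CPM, against 11 and 12 with TMM scaling. Insig1, which holds the sterol sensor back, had 415, 295 and 535 CPM. Cyp7a1, which sets the rate at which bile acids are made, had 159.9, 69.5 and 125 CPM. Both were lowest in liver 2, Insig1 was highest in liver 3 and Cyp7a1 in liver 1. Abcb11, the bile salt export pump, was flatter with 1262, 966 and 1094 CPM.

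Among iron genes Trf and Cp, ceruloplasmin, had the most reads, Cp with 2273, 2141 and 2142 CPM. Hamp had 352, 948 and 649 CPM and was highest in liver 2, as was Id1, which responds to the same bone morphogenetic protein pathway. Tmprss6, a protease that restrains that pathway, was narrow at 598, 596 and 635 CPM. Fth1, ferritin heavy chain, had 749, 877 and 948 CPM. Of growth factor genes, Igf1, the circulating growth factor made under growth hormone, had 695, 702 and 899.6 CPM and Ghr, the growth hormone receptor, 770.1, 829 and 939.9 CPM. Igfbp2, a binding protein, had 554, 298 and 234 CPM and, like Igfbp1, was highest in liver 1, whereas Egfr, the epidermal growth factor receptor, was highest in liver 2 with 456, 693 and 410.3 CPM.

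Cell cycle genes were low. Of 25, 20 reached 1 CPM, and 14 of those were highest in liver 1 (11 with TMM scaling). Ccnd1, cyclin D1, which starts the cycle, had 134, 53.5 and 40.3 CPM. Ccna2, cyclin A2, of DNA replication and division, had 3.29, 0.699 and 0.763 CPM, and Pcna, the clamp of DNA polymerase, 8.33, 7.59 and 8.51 CPM. Immediate early genes had 4 of 18 members (22.2%) 2-fold apart and no common liver order. Jund had 59.9, 105 and 83.99 CPM, Zfp36, which destabilises messages, 88.6, 48.6 and 77.6 CPM and Dusp1, a phosphatase, 33.7, 31.1 and 32.3 CPM.

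All 3 livers held reads of Y-linked genes and hardly any of Xist, the RNA that coats the inactive X chromosome. Ddx3y, a helicase, had 123, 144 and 116 CPM, Eif2s3y, a translation factor, 48.9, 74.2 and 76.7 CPM, Uty, a demethylase relative, 24.2, 20.5 and 29.9 CPM and Kdm5d, a histone demethylase, 20.6, 22.03 and 26.2 CPM. Xist had 0.178, 0.0350 and 0.0803 CPM. Of genes known to be male-biased in liver, Cyp2d9 had 745, 874 and 840.3 CPM, Slco1a1, an organic anion transporter, 894, 723 and 1023 CPM and Cyp7b1, an oxysterol hydroxylase, 434, 256 and 319 CPM. Mup20, the pheromone darcin (50.5% of windows shared), had 66.6, 511 and 401 CPM. Genes known as female-biased summed to 34.8, 48.3 and 135 CPM, highest in liver 3. Of the 9 at or above 1 CPM, 1, 2 and 6 were highest in livers 1, 2 and 3. Cyp2b9 gave 96.6 CPM of the sum in liver 3, Cyp17a1, of steroid synthesis, had 1.04, 1.05 and 7.11 CPM and Cyp2b13 0.652, 0.315 and 6.42 CPM. Liver 3 was the highest for these 3 genes, and its Cyp2d9 and Slco1a1 were not the lowest of the livers. The male-biased list also had its largest sum in liver 3, with 4913, 3826 and 5120 CPM. Of its 13 genes at or above 1 CPM, 6 were highest and 1 was lowest in liver 3.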

How the data were processed

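Liver RNA of 3 wild type mice was analysed from the read counts per gene that the authors deposited, 1 table per library with 22609 genes. Per the submitters' processing notes, base calling used CASAVA 1.8.2, alignment TopHat2 2.0.7 to mm9, and counting HTSeq. For HTSeq, its version, the annotation and the use of strand are not given in the sources used here. Overlapping and antisense genes therefore cannot be separated. RNA was taken with a Qiagen kit and libraries made with an Illumina TruSeq kit, per the labels' protocols. The 5 summary lines were dropped. No-feature reads were 11.5% to 13.1% and ambiguous reads 0.635% to 0.672% of uniquely aligned reads, and the lines for low quality and unaligned reads were 0.

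CPM is over reads in genes. CV is the SD over 3 livers divided by the mean, and the counting value assumes Poisson error. The common biological coefficient of variation came from edgeR 4.0.16 (R 4.3.3) with TMM scaling and an intercept alone, DESeq2 1.42.0 being an alternative. Tables were made in Python 3.11.15. The spread estimates were also run on simulated counts with spreads set in advance, and no result here rests on that run. With 1 group, no test was made and p-values are not given. Whether the 3 mice were littermates or were handled together is not known, so the spread may be partly technical.

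Lengths and shared windows came from GENCODE M21 transcripts (GRCm38), matched by symbol for 20284 genes and by a unique synonym for 1921. Promoters came from RefSeq (GRCm38.p6). Neither has the build of the counts, so no position of a count is given. Of 780 list entries, 775 were matched.

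Members, lists and families were chosen with earlier results of these data known. Named genes are the 30 of highest mean CPM, the 20 of highest and 10 of lowest CV among genes of at least 10 CPM, up to 4 leading members and the widest member of each list, the 3 leading members of each family, and all PCR reference, clock and Y-linked genes. Other genes named from the lists were chosen after their values were seen. A few genes under this rule are not reported here, although the counts over lists include them.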

Additional observations from a re-analysis of the deposited data

Results flagged for a closer look

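Signal outside the gene counts was present in each library, with no control sample to set it against. Alignments to several places came to 53655164, 32683159 and 33797653 in livers 1, 2 and 3. Reads that overlapped no annotated gene came to 4910893, 3743899 and 3797716. Neither kind enters the levels described above. Groups of 3 livers are too small for a check of single outlying samples.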

How the results depend on the processing

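Of 46 recomputed summary values, 38 stayed within 1.5 times the main value (for shares of reads, within 1 SD over livers). Leaving out 1 of 3 livers moves a mean by less than 1 SD, so for shares those recomputed values could hardly fail. The limit of 1.5 times is wide as well: 22 of the 30 top genes kept per kilobase counts as within it. The number of genes 2-fold apart was 1266, and it was 4979 over all genes with at least 1 read, 429 at a mean of at least 10 CPM, and 570 to 752 when each liver was left out, which leaves 2 livers and so fewer chances of a wide pair. The 10 genes with most reads held 17.4%, and the 10 with most reads after Alb held 10.7% of the total without Alb. For 100 genes these shares were 38.3% and 32.9%. Families with at least 1% of reads numbered 10, and 6 over all uniquely aligned reads. The median CV was 9.23% to 11.03% without 1 liver and 12.1% with TMM scaling or DESeq2 size factors. The common biological coefficient of variation was 20.2% to 22.9% without 1 liver. DESeq2's value, 16.5%, is a median over genes, and edgeR's median over genes was 17.7%. Of 192 recomputed list medians 165 stayed within 1.5 times. Of the others 9, 7 and 8 came from leaving out livers 1, 2 and 3, and 3 from a mean of at least 10 CPM. Without 1 liver, list members were filtered again at 1 CPM, so they can differ. Scaling moved no list median by that much, but put those of bile acid and antioxidant genes above the median of all genes. Family shares moved beyond 1 SD in 38 of 45 cases per kilobase and in 29 of 45 over uniquely aligned reads. Rankings under TMM and DESeq2 scaling, RLE scaling and the split by shared windows were chosen after seeing the data. No paired analysis was possible because there is 1 group. Depth limits detection to about 0.1 CPM, and values under 1 CPM have a median counting CV of 56.1%.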
